A study of Mus musculus with 6 samples.

Results

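A set of 52 cell cycle and mitosis genes was followed in mouse fetal liver cells sorted for activity of the Sox9 gene, in embryos of stages E16.5 and E18.5. The genes were chosen by name, as genes of S phase, of G2 and mitosis, cyclins, cyclin-dependent kinases (CDKs) and CDK inhibitors, and were found by Ensembl identifier. All 52 were listed among the 52550 genes of the deposited table, and all 52 had a mean of at least 1 TPM, the length-scaled share of a library's transcripts and the minimum for testing. The cells came from embryos of CD-1 mice with the genotype Sox9-GFP, in which green fluorescent protein (GFP) reports Sox9, a transcription factor of bile duct cells. Livers were pooled and dissociated, blood cells with lineage markers, erythroid cells included, were depleted on magnetic columns according to the methods, and GFP-positive cells were sorted as cholangiocytes, the epithelial cells of bile ducts. There were 3 libraries of total RNA at E16.5 (day 16 in the labels) and 3 at E18.5 (day 18 in the labels), here called replicates A, B and C. No agent was given and every embryo carried the reporter, so age is the labelled difference. Neither the labels nor the methods say how the libraries of a stage relate to each other, so p-values measure the spread between these libraries, which may be technical.

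A dividing cell passes through G1, S, G2 and mitosis. In G1, D cyclins with CDK4 or CDK6 and E cyclins with CDK2 phosphorylate the retinoblastoma proteins and release E2F factors, which switch on the genes of DNA replication. The genes of mitosis are switched on later by B-MYB and FOXM1 with the MuvB complex, and in resting cells the DREAM complex keeps them off. CDK inhibitors such as p21 and p27 hold the kinases back. Hepatoblasts and bile duct cells both still divide in the late fetal liver.

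The promoters of these genes carry letters of both programmes, and 5 are shown because the replication genes and the mitosis genes differed in their change between the stages. Windows from 250 bases before to 50 bases after the transcription start came from RefSeq (GRCm38.p6), where 42 of the 52 genes had one. The letters searched, on both strands, were the cell cycle homology region (CHR), TTTGAA or TTCGAA, which MuvB complexes bind, the CCAAT box, which NF-Y binds, and the E2F motif, TTNNCGN with each N a C or a G. E2F letters can overlap each other and the CCAAT box. Each window is read 5′ to 3′ along the gene's strand with every match in capitals, and transcription starts 50 bases before its end. The first group are mitosis genes whose windows hold CHR and CCAAT letters and no E2F letters.
Ccnb2 (chr9:70421505-70421804, minus strand): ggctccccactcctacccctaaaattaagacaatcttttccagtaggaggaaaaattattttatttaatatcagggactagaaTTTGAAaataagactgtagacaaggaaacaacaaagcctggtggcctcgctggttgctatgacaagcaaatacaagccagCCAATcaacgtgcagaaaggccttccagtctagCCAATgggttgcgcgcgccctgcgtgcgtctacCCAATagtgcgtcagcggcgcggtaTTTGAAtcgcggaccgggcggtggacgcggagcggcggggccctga
Aurka (chr2:172370521-172370820, minus strand): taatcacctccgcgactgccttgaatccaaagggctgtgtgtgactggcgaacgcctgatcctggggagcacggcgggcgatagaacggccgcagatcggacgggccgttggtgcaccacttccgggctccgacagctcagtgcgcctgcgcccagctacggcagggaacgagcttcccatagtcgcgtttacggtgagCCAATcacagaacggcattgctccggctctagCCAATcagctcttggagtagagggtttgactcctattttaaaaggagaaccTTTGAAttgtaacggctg
Cdc20 (chr4:118437294-118437593, minus strand): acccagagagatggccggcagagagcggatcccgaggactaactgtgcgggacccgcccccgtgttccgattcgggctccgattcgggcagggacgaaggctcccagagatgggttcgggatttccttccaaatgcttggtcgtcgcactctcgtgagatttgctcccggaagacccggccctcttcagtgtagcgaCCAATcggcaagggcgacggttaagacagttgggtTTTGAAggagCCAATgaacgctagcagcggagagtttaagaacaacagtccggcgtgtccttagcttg
The second group, Mcm3 and Mcm6, encode subunits of the MCM replicative helicase, and their windows hold E2F and CCAAT letters and no CHR letters. Not every subunit gene is alike. The Mcm2 window holds CHR letters and no E2F letters, and a window of Mcm7 holds both.
Mcm3 (chr1:20820263-20820562, minus strand): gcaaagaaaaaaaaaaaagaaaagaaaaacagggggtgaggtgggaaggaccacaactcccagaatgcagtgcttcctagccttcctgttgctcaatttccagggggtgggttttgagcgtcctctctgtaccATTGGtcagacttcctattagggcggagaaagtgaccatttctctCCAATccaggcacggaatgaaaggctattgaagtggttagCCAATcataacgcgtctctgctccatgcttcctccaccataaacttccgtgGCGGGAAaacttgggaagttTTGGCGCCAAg
Mcm6 (chr1:128359656-128359955, minus strand): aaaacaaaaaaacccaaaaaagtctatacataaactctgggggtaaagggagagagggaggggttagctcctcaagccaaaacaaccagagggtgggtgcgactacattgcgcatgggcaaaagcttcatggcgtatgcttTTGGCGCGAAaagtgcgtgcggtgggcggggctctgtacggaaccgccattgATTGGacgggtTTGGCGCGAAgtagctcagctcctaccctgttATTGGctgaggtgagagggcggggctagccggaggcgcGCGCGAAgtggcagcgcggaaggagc
In the Ccnb2 window, 3 CCAAT boxes precede the CHR that lies just after the start. CHR letters were found in the windows of 14 of 19 mitosis genes (73.7%), of 2 of 11 replication and nucleotide supply genes (18.2%) and of 21.7% of all 27025 genes with a window. E2F letters were found for 4 of the 19 mitosis genes (21.1%), 8 of the 11 replication and nucleotide supply genes (72.7%) and 19.8% of all genes. CHR and CCAAT letters stood together for 14 of the 19 mitosis genes, against 9.65% of all genes. A pair of CCAAT boxes starting 31 to 34 bases apart, a spacing chosen after the positions were seen, was found for 5 of the 19 mitosis genes (Ccnb1, Ccnb2, Cdk1, Aurka and Ube2c), 0 of the 11 replication and nucleotide supply genes and 1.37% of all genes. A match describes letters only and shows no binding.

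TPM corrects for the length of a gene and the depth of a library, so that levels can be compared between genes. The values resolved into 23193537 to 26206374 whole reads per E16.5 library and 13093937 to 22643868 per E18.5 library, so low genes were measured less precisely at E18.5. Members with recovered reads had at least 55 reads in every library (Gmnn, the lowest). The sorted cells expressed Sox9 at 69.5 to 186 TPM in the E16.5 libraries and at 353 to 466 TPM in the E18.5 libraries, and 10 of 11 cholangiocyte markers passed the test as higher at E18.5, against 26.0% of all genes tested. With median-of-ratios scaling, described below, 5 of 11 did (6.44% of all genes), and with quantile normalization also 5 (8.53% of all genes). They also contained other transcripts. Alb, the albumin gene of hepatoblasts and hepatocytes, took 11.8% to 14.8% of all TPM in the E16.5 libraries and 3% to 7.02% in the E18.5 libraries. The 12 megakaryocyte markers, none listed at 0, had sums of 3484 to 10057 TPM in the E16.5 libraries and of 112 to 813 TPM in the E18.5 libraries, and all 12 passed the test as lower. The 11 erythroid markers had sums of 436 to 468 TPM at E16.5, and at E18.5 they came to 190 TPM in replicate A, 730 TPM in B and 269 TPM in C. Of the 11, Gata1 and Epor (2 markers) passed as lower, and 0 passed as higher. Of the hepatoblast markers 8 of 12 passed as lower (7 of 12 with median-of-ratios scaling). Of all genes tested, 5.22% passed as lower, and 10.5% with median-of-ratios scaling. The 10 mesenchyme markers had sums of 283 to 443 TPM at E16.5 and of 575 to 1031 TPM at E18.5. Of them 3 passed as higher, against 26.0% of all genes tested, and 1 with median-of-ratios scaling (6.44% of all genes). The sums of 9 endothelial markers overlapped (107 to 174 TPM, then 111 to 222 TPM). So did those of 10 leukocyte markers (118 to 206 TPM, then 86.8 to 179 TPM). In bulk RNA, fewer cells of a type and less RNA per cell cannot be told apart.

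The 52 genes were well expressed at both stages, and few changed beyond the spread between libraries. At E16.5, 32 of them lay at or above the 75th percentile of the 21819 protein-coding genes by mean TPM, and the means over all libraries ran from 5.16 TPM (Cdkn2c) to 162 TPM (Cdk4). By limma on log2(TPM + 1) with Benjamini-Hochberg adjustment over 22452 genes, 3 members (Ccnd2, Cdk6 and Cdkn1a) were higher at E18.5, against 26.0% of all genes tested. One member (Ccne1) was lower, against 5.22% of all genes tested. The median change of the 52 was 0.00 on the log2 scale, and that of all genes tested was 0.42, so TPM carried a general shift upward at E18.5. Relative to that shift 41 of the 52 genes lay below the median gene and 11 above it. The stages did not overlap for 8 members that were higher and 4 that were lower at E18.5, against 45.0% and 8.30% of all genes tested.

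Because of that shift, the calls depend on the scale. With median-of-ratios scaling, which sets the typical gene to no change (median 0.01 over all genes), 2 members were higher (background 6.44%) and 21 were lower (background 10.5%). Of the 21, 16 were among the 23 mitosis genes. Ccnd2 and Cdkn1a stayed higher and Ccne1 lower on both scales, whereas Cdk6 did not. Changes below are on the TPM scale unless the scaling is named, and each is E18.5 minus E16.5 on log2(TPM + 1), which understates the change of low genes.

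**Figure D1:**
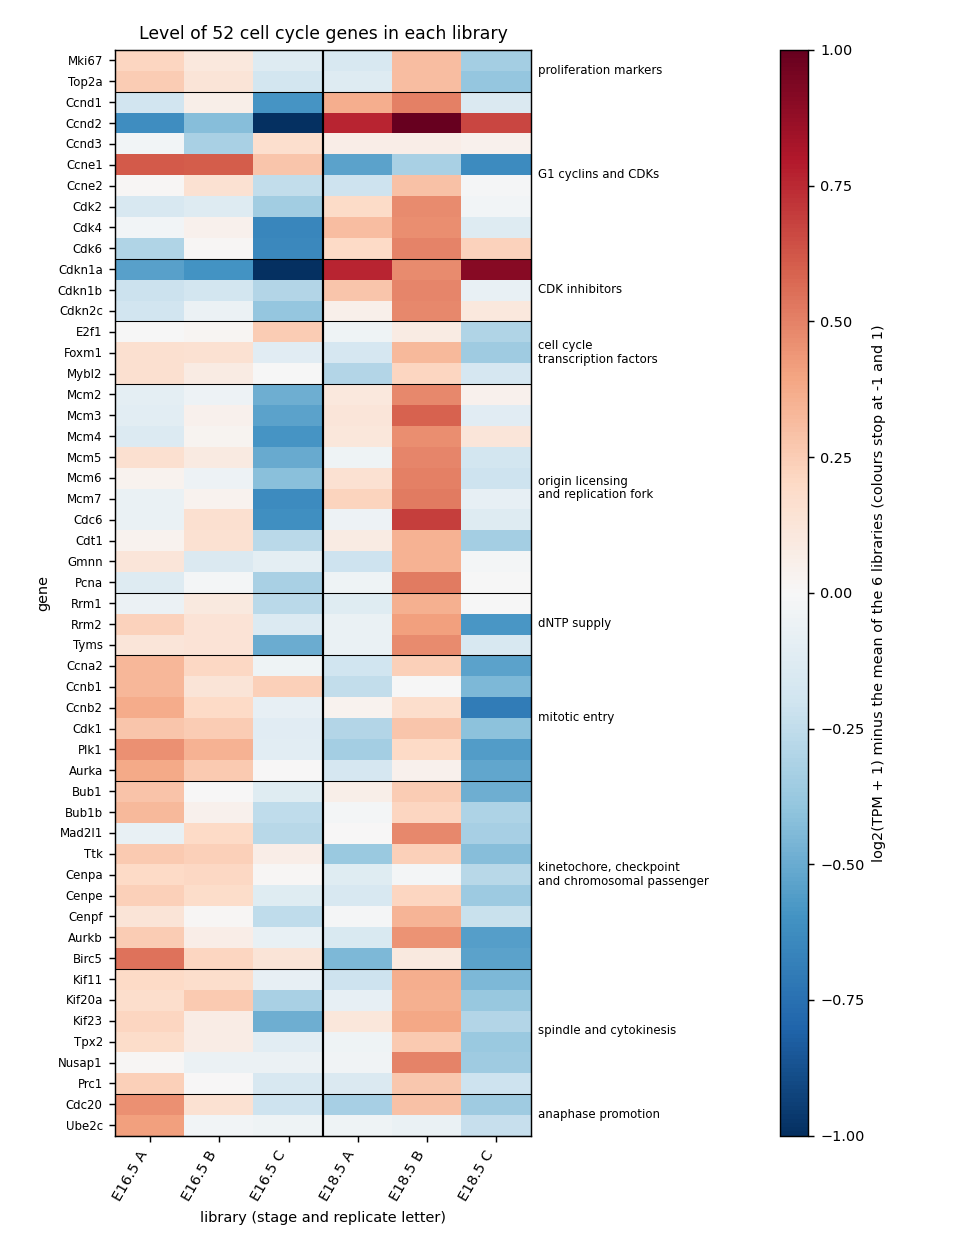
Level of each of the 52 genes in each library (columns, stage and replicate letter), as log2(TPM + 1) minus the gene's mean over the 6 libraries, with rows grouped by role. Ccnd2 and Cdkn1a are low in all E16.5 columns and high in all E18.5 columns, Ccne1 is the reverse, and most other rows are highest in replicate B and lowest in replicate C within E18.5.

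The heat map of levels also showed a difference between the libraries of 1 stage that most members shared. Within E18.5, replicate B was the highest library for 50 of 52 members (96.2%), against 54.2% of all genes tested. Replicate C was the lowest E18.5 library for 43 members (82.7%), against 48% of all genes tested. Within E16.5, replicate C was the lowest library for 48 members (92.3%), against 56.5% of all genes tested. E18.5 replicate B was also the library with the highest erythroid marker sum and the lowest share of Alb. The globin genes Hba-a1 (245 TPM) and Hbb-bs (194 TPM) made up much of that sum. Not every erythroid marker was high there: Klf1 was at 8.03, 7.42 and 8.53 TPM in E18.5 replicates A, B and C. It had the highest cholangiocyte marker sum too (14874 TPM, against 12612 and 8814 TPM in E18.5 replicates A and C). E16.5 replicate C had the lowest cholangiocyte marker sum (985 TPM, against 2419 and 2962 TPM) and the highest megakaryocyte marker sum. These are levels left after the depletion of lineage-marked blood cells, and their part in the members' levels was not tested. The exceptions within E18.5 replicate B were Cdkn1a, lowest there, and Ube2c, at 11.3 TPM there and 11.5 TPM in replicate A.

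**Figure D2:**
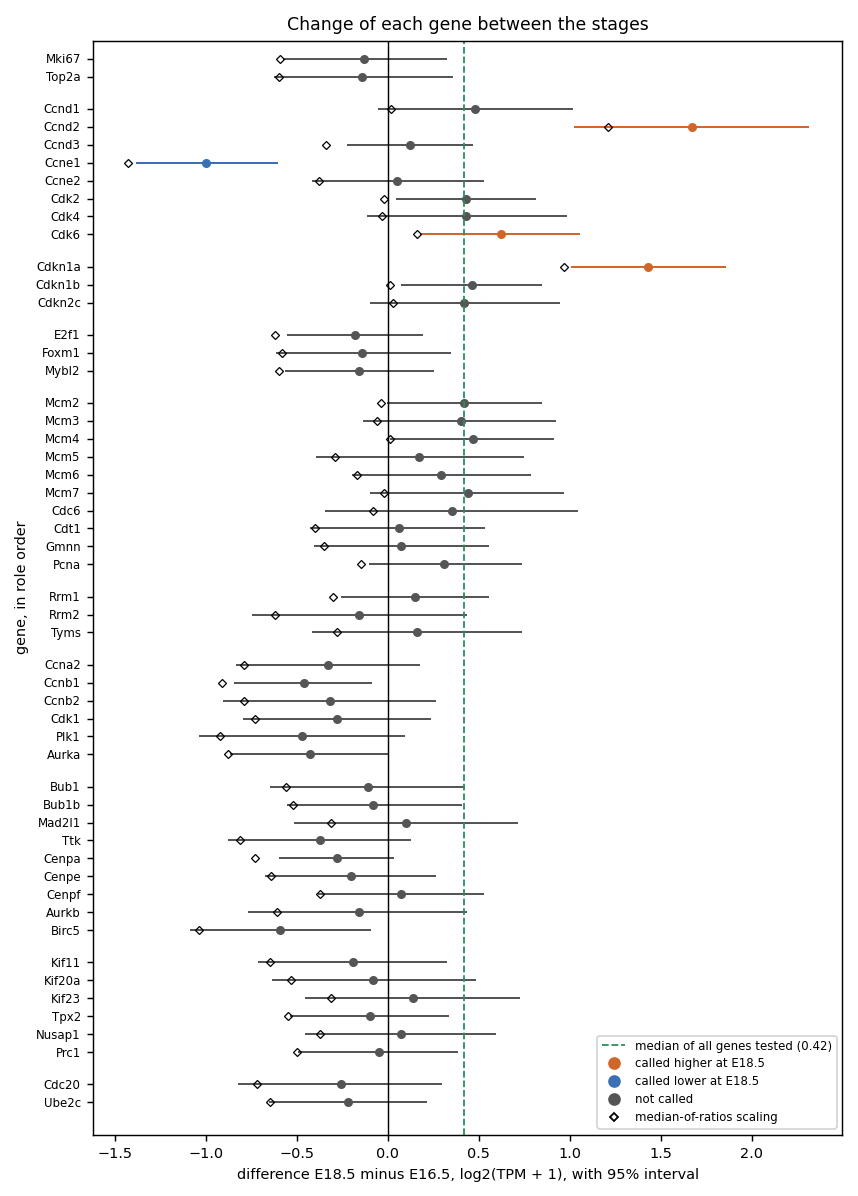
Difference between the stages for each gene, E18.5 minus E16.5 on log2(TPM + 1), as filled points with 95% intervals from limma, and with median-of-ratios scaling as open diamonds. The dashed line is the median of all genes tested (0.42), which the 13 S phase genes approach with a median of 0.29, while every mitosis gene lies to its left.

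Among the G1 cyclins, Ccnd2 rose and Ccne1 fell, and both nearest relatives, Ccnd1 and Ccne2, stayed short of the threshold. Ccnd2 (ENSMUSG00000000184, chr6:127125162-127152193, GRCm38), a D cyclin that couples growth signals to CDK4 and CDK6, was at 74.2, 85 and 41.2 TPM in the E16.5 replicates A, B and C and at 195, 242 and 183 TPM in the E18.5 replicates. Every E18.5 library was above every E16.5 library, and the change was 1.67 (SE 0.27, adjusted p = 0.0112). It passed the test in all 15 alternatives, with adjusted p from 0.0048 to 0.0451, and genes on the other strand cover 7.86% of its exon bases. Ccne1 (ENSMUSG00000002068, chr7:38097984-38107534), an E cyclin that drives CDK2 at the start of S phase, was at 26.9, 26.8 and 21.2 TPM at E16.5 and at 11.6, 13.6 and 10.8 TPM at E18.5. Its stages did not overlap, and it fell by 1.0 on the log2 scale (SE 0.16, adjusted p = 0.0112), again in all 15 alternatives (adjusted p from 0.00492 to 0.0477).

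Ccnd1, the other main D cyclin, was at 128, 152 and 96.7 TPM and then at 188, 208 and 132 TPM, so the stages overlapped (change 0.48, 95% interval -0.05 to 1.01, adjusted p = 0.134). LTO1 on the other strand covers 23.36% of its exon bases, and where strand was not used in counting the reads of both cannot be told apart. Ccnd3 was at 48.7, 39.4 and 55.8 TPM and at 51.8, 52 and 51.2 TPM, with a change of 0.12 (interval -0.22 to 0.46), and a processed copy, Ccnd3-ps, at 2.32 to 8.44 TPM. Ccne2, the second E cyclin, was at 11.4, 12.7 and 9.36 TPM and at 9.66, 14.1 and 11.2 TPM, with a change of 0.05 (interval -0.41 to 0.52, adjusted p = 0.849).

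Ratios within a library do not depend on its scaling, and are given as values without a test, having been chosen after the data were seen. Ccnd2 made up 29.6%, 30.8% and 21.2% of the TPM summed over the D cyclins at E16.5 and 44.9%, 48.3% and 50% at E18.5. The D cyclin sum was 250, 276 and 194 TPM at E16.5 and 435, 502 and 366 TPM at E18.5. Ccne1 made up 70.3%, 67.8% and 69.4% of the E cyclin TPM at E16.5 and 54.5%, 49.1% and 49.1% at E18.5. In both families the shares of the stages did not overlap: Ccnd2 went from below Ccnd1 (ratio 0.425 to 0.581) to just above it (1.04 to 1.39), and Ccne1 from above Ccne2 (ratio 2.11 to 2.36) to about its level (0.964 to 1.2).

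Of the kinases of G1, Cdk6 passed the test and Cdk4 and Cdk2 did not. Cdk6 (ENSMUSG00000040274, chr5:3341485-3531008), a partner of the D cyclins, was at 48.1, 60 and 37.7 TPM and at 68.4, 84 and 69.8 TPM, without overlap. Its change of 0.62 (SE 0.19, adjusted p = 0.0433) passed in 5 of 15 alternatives. It was 0.16 with median-of-ratios scaling (adjusted p = 0.445), and leaving out E16.5 replicate A or C, or E18.5 replicate A, B or C, gave adjusted p of 0.0928, 0.0891, 0.0902, 0.117 and 0.0697. Cdk4, the other D cyclin partner and the most abundant member, was at 154, 162 and 99.5 TPM and at 195, 217 and 144 TPM, with overlap (change 0.43, interval -0.11 to 0.98, adjusted p = 0.18). Tspan31 on the other strand covers 19.73% of its exon bases. Cdk2, the partner of E cyclins, was at 24.8, 25.4 and 21.7 TPM and at 32, 39.1 and 27.4 TPM, without overlap but short of the threshold (change 0.43, adjusted p = 0.0787). Both changes lie within 0.02 of the median gene's, and Cdk2 and Cdk4 stood at -0.02 and -0.03 with median-of-ratios scaling.

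**Figure D3:**
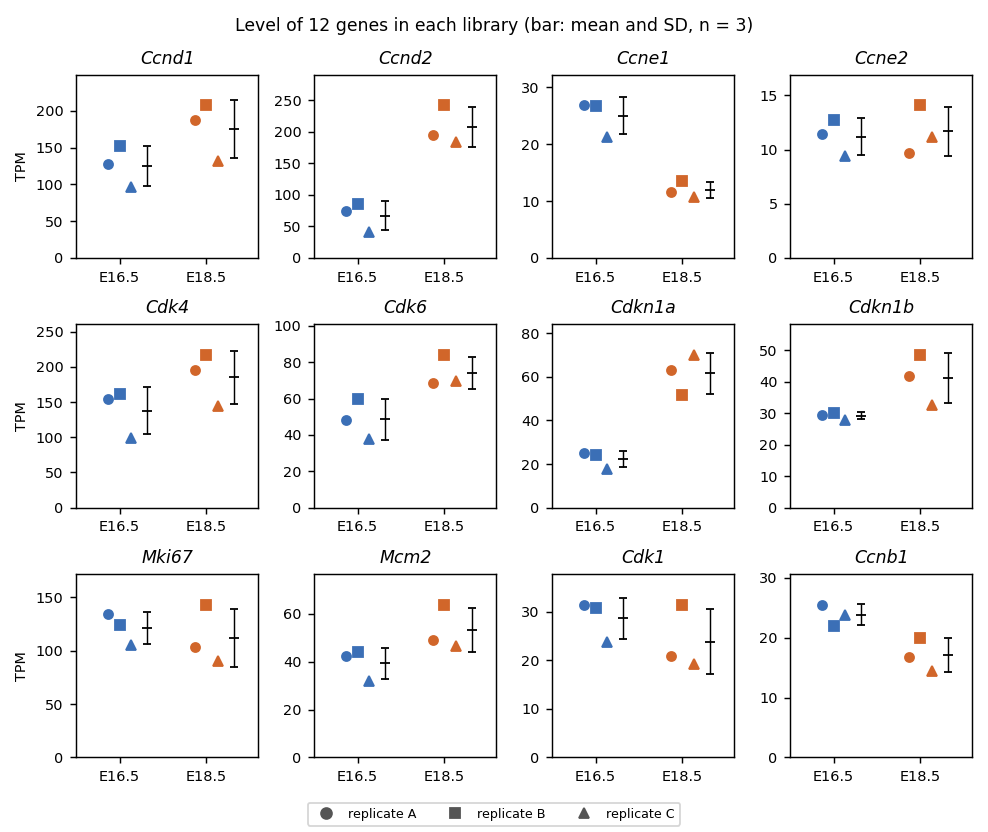
TPM of 12 genes in each library by stage, with circles, squares and triangles for replicates A, B and C and black bars for the mean and SD of 3 libraries. Ccnd2, Cdk6, Cdkn1a, Cdkn1b and Mcm2 separate upward between the stages, as do 45.0% of all genes tested. Ccne1 and Ccnb1 separate downward, as do 8.30% of all genes tested. Ccnd1, Ccne2, Cdk4, Mki67 and Cdk1 overlap. Cdkn1b, Mcm2 and Ccnb1 did not pass the test.

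Of the 3 CDK inhibitors among the members, Cdkn1a, which encodes p21, passed the test and Cdkn1b and Cdkn2c did not. Cdkn1a (ENSMUSG00000023067, chr17:29090976-29100727) was at 25, 24 and 17.9 TPM at E16.5 and at 63.1, 51.4 and 70 TPM at E18.5. Its means were 22.3 ± 3.84 and 61.5 ± 9.4 TPM (SD, n = 3), a ratio of 2.76, and the stages did not overlap. The change was 1.43 (SE 0.18, adjusted p = 0.00842), and 0.97 with median-of-ratios scaling (adjusted p = 0.0187). It passed in all 14 alternatives that could be run, with adjusted p from 0.00676 to 0.0372, and a gene on the other strand covers 7.68% of its exon bases. Within E18.5 its order of libraries, C above A above B, was that of Alb (7.02%, 6.03% and 3% of TPM). Within E16.5 the orders were opposite, with Cdkn1a falling from A to C and Alb rising (11.8%, 12.5% and 14.8% of TPM). Between the stages Cdkn1a rose and the share of Alb fell. A relation to Alb-expressing cells was not tested.

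Cdkn1b, which encodes p27, was at 29.5, 30.1 and 27.9 TPM and at 41.9, 48.6 and 32.7 TPM, without overlap (change 0.46, interval 0.08 to 0.84, adjusted p = 0.0646). It passed when E18.5 replicate C was left out (0.61, adjusted p = 0.0316). Cdkn2c, which encodes the CDK4 and CDK6 inhibitor p18, was the lowest member, at 4.3, 4.82 and 3.64 TPM and at 5.28, 7.43 and 5.5 TPM (change 0.42, interval -0.09 to 0.94, adjusted p = 0.168). With median-of-ratios scaling Cdkn1b and Cdkn2c stood at 0.01 and 0.03, the level of the typical gene.

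The general proliferation markers did not separate the stages. Mki67, which encodes the Ki67 antigen of cycling cells, was at 134, 124 and 105 TPM at E16.5 and at 103, 143 and 90.6 TPM at E18.5. The highest and the lowest library were both E18.5 libraries, and the change was -0.13 (interval -0.57 to 0.32, adjusted p = 0.611). Top2a, the topoisomerase of replicating and condensing chromosomes, was at 84.7, 77.8 and 62.3 TPM and at 64.6, 88.2 and 54.1 TPM (change -0.14, interval -0.62 to 0.35, adjusted p = 0.623). With median-of-ratios scaling they were called lower, at -0.59 (adjusted p = 0.0287) and -0.60 (adjusted p = 0.0346).

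The transcription factors of the cycle overlapped between the stages as well. E2f1, an activator of replication genes, was at 20, 20.3 and 24.1 TPM and at 19.4, 21.3 and 16.1 TPM (change -0.18, interval -0.55 to 0.19, adjusted p = 0.397). Foxm1, an activator of mitosis genes, was at 24.1, 24 and 19.8 TPM and at 19, 27.1 and 16.6 TPM (change -0.14, interval -0.61 to 0.34, adjusted p = 0.618). Mybl2, which encodes B-MYB, changed by -0.16 (adjusted p = 0.495). With median-of-ratios scaling Foxm1 (-0.58, adjusted p = 0.0394) and Mybl2 (-0.60, adjusted p = 0.0287) were called lower and E2f1 was not (-0.62, adjusted p = 0.05).

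The 13 genes of S phase, 10 of origin licensing and the replication fork and 3 of nucleotide supply, lay near the typical gene. None passed the test on the TPM scale by limma. An unadjusted p under 0.05 was found for 2 of the 13, against 10488 of all 22452 genes tested. The median change of the 13 was 0.29, beside 0.42 for all genes tested. Of the 13, 12 were above 0, but 10 were below the median gene and 3 above it. Mcm2, a subunit of the helicase loaded at origins, was at 42.4, 43.9 and 32.1 TPM at E16.5 and at 49, 63.8 and 46.7 TPM at E18.5. Its stages did not overlap, with a change of 0.42 (interval 0.00 to 0.84, adjusted p = 0.105). Mcm4 likewise did not overlap (50 to 77.3 TPM, then 81.9 to 105 TPM, change 0.47, adjusted p = 0.0955). The other MCM subunits, Mcm3, Mcm5, Mcm6 and Mcm7, overlapped, with changes from 0.17 (Mcm5) to 0.44 (Mcm7). Mcm6 was the most abundant of the licensing genes, at 117, 110 and 85.1 TPM and at 127, 162 and 98.6 TPM (change 0.29, interval -0.19 to 0.78, adjusted p = 0.294).

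Cdc6 and Cdt1, which load the helicase, changed by 0.35 (adjusted p = 0.376) and 0.06 (adjusted p = 0.839), and Gmnn, which encodes the Cdt1 inhibitor geminin, by 0.07 (adjusted p = 0.789). Pcna, the sliding clamp of the fork, was at 86.5, 93.5 and 75.5 TPM and at 91.9, 136 and 94.5 TPM (change 0.31, interval -0.10 to 0.73, adjusted p = 0.2). Its values are uncertain, because the processed copy Pcna-ps2 was listed at 136, 154 and 121 TPM and at 166, 236 and 147 TPM, 1.55 to 1.8 times the level of Pcna itself, and reads of such copies can be divided between them. Of the nucleotide supply genes, Rrm2, the regulated subunit of ribonucleotide reductase, was at 90.6, 84.9 and 70.2 TPM and at 73.7, 103 and 51.2 TPM (change -0.16, interval -0.74 to 0.43, adjusted p = 0.638). Rrm1, its partner, and Tyms, which makes thymidylate, changed by 0.15 and 0.16 (adjusted p = 0.503 and 0.621). With median-of-ratios scaling the median of the 13 genes was -0.17, with 0 called by limma. On that scale an unadjusted p under 0.05 was found for 3 of the 13, against 7583 of all 22452 genes tested. By voom on the recovered reads, without that scaling, 0 of the 13 were called.

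The 23 genes of mitosis lay lower than the typical gene at E18.5. None passed the test on the TPM scale by limma. An unadjusted p under 0.05 was found for 3 of the 23, against 10488 of all 22452 genes tested. The median change of the 23 was -0.20, beside 0.42 for all genes tested. Of the 23, 19 were below 0 and all 23 were below the median gene. With median-of-ratios scaling the median was -0.65, and 16 of 23 were called lower (background 10.5%, above). With quantile normalization 9 of 23 were called lower (background 8.37%), and by voom on the recovered reads 4 of the 21 with reads (background 6.66%).

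The genes that start mitosis had the lowest median change of the 4 mitosis roles (-0.38 over 6 genes). Ccnb1, the B cyclin that activates CDK1, was at 25.5, 22 and 23.8 TPM at E16.5 and at 16.7, 20 and 14.4 TPM at E18.5. Its stages did not overlap, with a change of -0.46 (interval -0.84 to -0.09, adjusted p = 0.0612) and of -0.91 with median-of-ratios scaling (adjusted p = 0.0128). A copy, Ccnb1-ps, was listed at 13.8 to 23.5 TPM and at 10.9 to 21.4 TPM, so the reads of both are uncertain. Cdk1, the mitotic kinase, was at 31.5, 30.9 and 23.8 TPM and at 20.9, 31.5 and 19.2 TPM. Its stages overlapped through E18.5 replicate B (change -0.28, interval -0.79 to 0.23, adjusted p = 0.336), and it was called lower with median-of-ratios scaling (-0.73, adjusted p = 0.0263). Ccnb2, the most abundant of the 6, was at 106, 93.9 and 77.2 TPM and at 84, 92.7 and 49.9 TPM (change -0.32, interval -0.90 to 0.26, adjusted p = 0.328). Ccna2, the cyclin of S phase and G2, and the kinases Plk1 and Aurka changed by -0.33, -0.47 and -0.43 (adjusted p = 0.254, 0.161 and 0.107). With median-of-ratios scaling all 6 genes of mitotic entry were called lower, from -0.73 to -0.92.

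Among the 9 genes of the kinetochore, the spindle checkpoint and the chromosomal passenger complex, changes ran from -0.59 to 0.10. Birc5, which encodes the passenger protein survivin, was at 39, 31 and 29 TPM and at 19.1, 28.5 and 18 TPM. Its stages did not overlap, by a narrow margin (change -0.59, interval -1.08 to -0.10, adjusted p = 0.066), it passed when E18.5 replicate B was left out (-0.79, adjusted p = 0.0409), and it was at -1.04 with median-of-ratios scaling (adjusted p = 0.0129). Cenpa, the centromeric histone, did not overlap either (28.8 to 33.1 TPM, then 23.4 to 28.1 TPM, change -0.28, adjusted p = 0.131). Aurkb, the passenger kinase and the most abundant of this group, was at 34.1, 29.7 and 26.9 TPM and at 25.5, 39.1 and 19.1 TPM (change -0.16, interval -0.76 to 0.43, adjusted p = 0.632). The checkpoint genes Ttk, Bub1, Bub1b and Mad2l1 changed by -0.37, -0.11, -0.08 and 0.10, and the kinetochore genes Cenpe and Cenpf by -0.20 and 0.07. With median-of-ratios scaling 5 of the 9 were called lower.

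The spindle and cytokinesis genes lay nearest to 0, with changes from -0.19 to 0.14 over 6 genes. Kif11, the motor that separates the spindle poles, was at 51, 50.2 and 41.9 TPM and at 38.2, 57.4 and 32.3 TPM (change -0.19, interval -0.71 to 0.32, adjusted p = 0.502). Tpx2, Prc1, Nusap1 and Kif23, which build the spindle or its midzone, changed by -0.10, -0.05, 0.07 and 0.14, and Kif20a, a motor of cytokinesis, by -0.08. Kif20a shares 29.3% of its exon bases with Cdc23 on the other strand. Cdc20, which activates the anaphase-promoting complex, was at 68.6, 55.4 and 43 TPM and at 39.3, 61.3 and 38.8 TPM (change -0.26, interval -0.82 to 0.29, adjusted p = 0.401). Ube2c, the ubiquitin-conjugating enzyme of that complex, changed by -0.22 (adjusted p = 0.362), and Tnnc2 on the other strand covers 22.77% of its exon bases. With median-of-ratios scaling 3 of the 6 spindle genes and both anaphase genes were called lower.

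The balance of S phase to mitosis transcripts within a library, which a factor applied to a whole library cannot alter, separated the stages. The S phase genes had sums of 789, 813 and 586 TPM at E16.5 and of 827, 1110 and 721 TPM at E18.5. The mitosis genes had sums of 834, 754 and 627 TPM at E16.5 and of 611, 801 and 491 TPM at E18.5. Each sum overlapped between the stages, but their ratio did not: it was 0.946, 1.08 and 0.935 at E16.5 and 1.35, 1.39 and 1.47 at E18.5. The ratio of the 6 MCM subunits to the 6 mitotic entry genes was 1.51, 1.71 and 1.42 at E16.5 and 2.41, 2.52 and 2.82 at E18.5. Replicate B of E18.5, which had the highest sums of both groups within its stage and the highest erythroid sum of all 6 libraries, lay between replicates A and C in both ratios. The part of erythroid cells in these ratios was not tested. The median change of the S phase genes exceeded that of the mitosis genes by 0.50 on the log2 scale. It did so by 0.54 with voom on recovered reads and by 0.43 to 0.51 without 1 library. The other alternatives say little here. The filters, the eBayes variants and the replicate block leave the changes themselves as they are, and scaling a library shifts both medians nearly alike. These ratios and this difference were chosen after the data were seen, and no test was made of them.

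**Figure D4:**
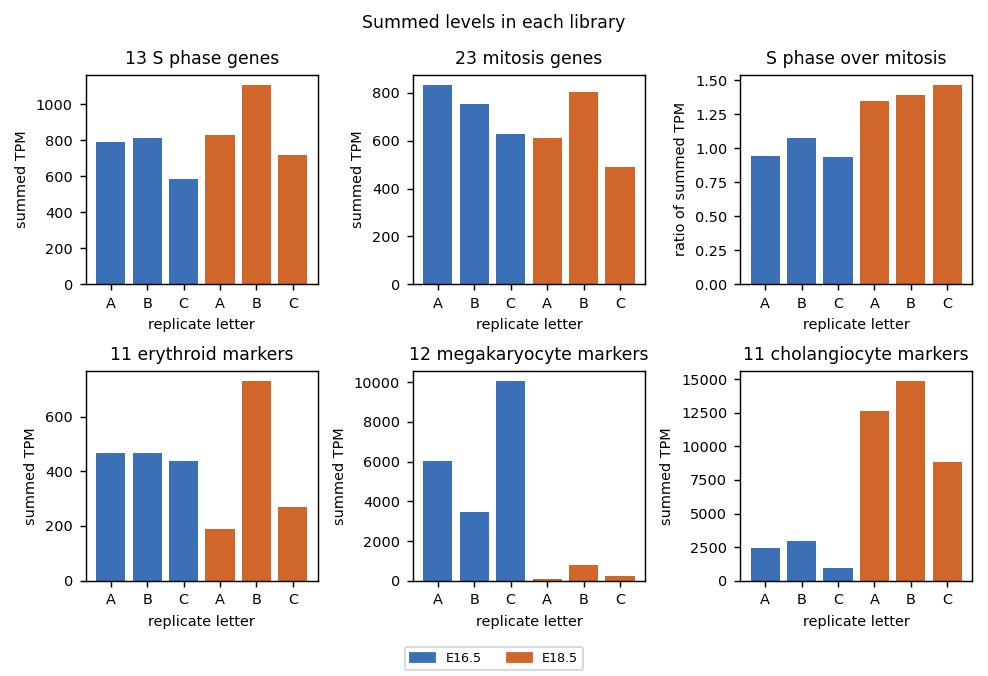
Summed TPM in each library (blue E16.5, orange E18.5) of the 13 S phase genes, the 23 mitosis genes and 3 marker lists, and the ratio of S phase to mitosis sums. The sums of both gene groups overlap between the stages, whereas the ratio is 0.935 to 1.08 in the E16.5 libraries and 1.35 to 1.47 in the E18.5 libraries.

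The promoter letters shown above follow the same division only in part. The 18 members with both CHR and CCAAT letters had a median change of -0.17, the 12 with E2F and no CHR letters one of 0.16, and the 12 with neither CHR nor E2F letters one of 0.14. Of the 18, 14 were mitosis genes, so these medians largely restate the difference between the mitosis genes and the others. Among genes outside the list, the medians were 0.36 for 957 genes with CHR and CCAAT letters and 0.41 for 3183 genes with E2F and no CHR letters, beside 0.41 for all 11941 such genes tested that had a window.

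Further genes of the same pathway were counted by role, beside 26.0% of all genes tested called higher and 5.22% called lower. Of 22 other replication genes 1 was called higher and 0 lower, with a median change of 0.20: Pola1, the catalytic subunit of the primase-bound polymerase, was at 18 to 31.2 TPM and then at 35.8 to 54.9 TPM (0.80, adjusted p = 0.0429, and 0.35 with median-of-ratios scaling, adjusted p = 0.212). Of 46 other mitosis genes 0 were called higher and 2 lower, with a median of -0.05, and all 46 were below the median gene. Those 2 were Cit, which encodes citron kinase of the cleavage furrow (26.8 to 27.2 TPM, then 13 to 16.6 TPM, -0.87, adjusted p = 0.0112), and Ccnf, a cyclin F-box protein (-0.53, adjusted p = 0.049). Cit passed in all 15 alternatives, and Ccnf in 5 of 14, missing the threshold without any 1 of the 6 libraries (adjusted p up to 0.127 over its alternatives). With median-of-ratios scaling 19 of these 46 were called lower (background 10.5%). Of 13 other regulators tested, mostly but not only of G1 and S phase, Cdk7 (0.54, adjusted p = 0.0447) and Wee1 (0.53, adjusted p = 0.0297) were called higher. Neither was called with median-of-ratios scaling (0.08 and 0.07, adjusted p = 0.618 and 0.634).

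Among 20 tested genes listed as brakes on the cycle, 6 were called higher and 2 lower, against the 26.0% and 5.22% of all genes tested. E2f5, a repressor E2F, was at 24.3, 25.6 and 20.7 TPM and at 42.9, 44.7 and 41.3 TPM (0.85, adjusted p = 0.0103), and passed in all 15 alternatives. Gas1, a growth arrest gene that also binds Hedgehog, was at 4.14, 1.6 and 1.14 TPM and at 7.01, 11.2 and 9.23 TPM (1.71, adjusted p = 0.0186). It missed the threshold without E18.5 replicate A (adjusted p = 0.0525) or B (0.0592). The others called higher were Rbl2 and Lin9, parts of the DREAM complex, Ccng2 and Tob1, with changes from 0.53 to 0.79, and none of these 4 was called with median-of-ratios scaling. Lin9 also belongs to the MuvB complex, which takes part in switching mitosis genes on as described above, so it is not only a brake.

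The genes called lower were Cdkn2d, which encodes the CDK4 and CDK6 inhibitor p19, and Rb1, the retinoblastoma gene. Cdkn2d was at 71.1, 45.1 and 129 TPM and at 12.2, 22.7 and 13.1 TPM (-2.21, adjusted p = 0.0134), and Rb1 at 47.8, 32 and 81.7 TPM and at 14.7, 23.7 and 16.6 TPM (-1.43, adjusted p = 0.0238). In each, the E16.5 libraries stood in the order C, A, B and E18.5 replicate B was the highest of its stage. That is also the order of the 12 megakaryocyte markers, with Itga2b at 413, 248 and 610 TPM and at 10.6, 50.5 and 21.9 TPM. The part of megakaryocytes in these values was not tested. Cdkn2d missed the threshold without E18.5 replicate A (adjusted p = 0.0514), and Rb1 without E16.5 replicate A (0.0547), E18.5 replicate A (0.0761) or E18.5 replicate C (0.053). Cdkn1c, which encodes p57, was the most abundant of the CDK inhibitors looked at, at 249, 254 and 249 TPM and at 221, 155 and 205 TPM (-0.39, interval -0.74 to -0.04, adjusted p = 0.0837), without overlap, and was called lower with median-of-ratios scaling (-0.85, adjusted p = 0.0336).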

How the data were processed

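The authors checked reads with FastQC 0.11.7, trimmed them, mapped them to GRCm38 with HISAT2 2.1.0, obtained gene counts from HTSeq 0.5.4p3 on a GENCODE annotation, and expressed them as TPM. Each library of the deposited TPM table adds up to 1000000. The labels also name Bowtie, without a role. The libraries came from a stranded kit, and whether the counting used strand is not given in the sources used here. Gene symbols, exon lengths and coordinates were looked up in GENCODE vM21 (GRCm38), which holds 52403 of the 52550 identifiers. Multiplying TPM by exon length and dividing by the value of 1 read gave reads, and 100.0% of 180057 values were whole within 0.01; they gave the depth and 1 alternative. Reads were not recovered for Cdkn1a, Kif11 and Kif20a, whose gene models differ.

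Linear models of log2(TPM + 1) were fitted to genes averaging at least 1 TPM with limma 3.58.1 (R 4.3.3) and moderated by its eBayes function with the intensity trend, at an adjusted p of 0.05 over all genes tested. The steps were tested on simulated data. Libraries of one stage differed by far more than counting error (chi-square per degree of freedom 15.1 or more), so all 6 were kept. Intervals are 95% intervals of the model. The alternatives were another pseudocount, other filters, median-of-ratios scaling, quantile normalization, eBayes without trend or with robust estimation, voom on recovered reads, a replicate block and leaving out each library. Members, role lists and pathway lists were chosen with earlier results of these data known. Given in full were members past the threshold, the most abundant member of each role and a list of well-known genes, and from the pathway lists genes past the threshold with a change of at least 1, to which Pola1, Cit, Ccnf, Cdk7, Wee1, E2f5, Rbl2, Lin9, Ccng2, Tob1 and Cdkn1c were added after their values were seen. Protein sequences were not used here.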

Additional observations from a re-analysis of the deposited data

How the results depend on the processing

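The count of all genes past the threshold, 7000, was 4282 with no filter, 3795 with median-of-ratios scaling and 3796 with quantile normalization, and ran from 1472 (without E18.5 replicate A) to 5686 when 1 library was left out. Members called higher were 3, with 1 by voom, 11 with the replicate block and 2 to 3 without 1 library. The member called higher by voom was Ccnd2. Cdk6 was not called there, and Cdkn1a, without recovered reads, could not be run. Members called lower were 1, with 2 at a mean of at least 5 TPM (Ccnb1 added), 21 with median-of-ratios scaling, 11 with quantile normalization, 5 by voom, 2 with the replicate block (Aurka added) and 1 to 2 without 1 library (Birc5 added without E18.5 replicate B). The members' median change of 0.00 was -0.45 with median-of-ratios scaling and -0.35 with quantile normalization, and -0.18 to 0.10 without 1 library. Relative to the median of all genes (-0.42) it was -0.19 with no filter, where many genes near 0 enter, and -0.55 to -0.35 without 1 library.

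The replicate letters were not taken as pairs: the deviations of same-letter libraries correlated at -0.042, 0.081 and 0.14, and not every library correlated best with its own letter. With the block, Ccnd1, Cdk2, Cdk4, Cdkn1b, Mcm2, Mcm3, Mcm4 and Mcm7 were added to the members called higher (adjusted p from 0.0191 to 0.0491), so that 4 of the 13 S phase genes were called, against 27.5% of all genes tested.

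Without 1 library the uncalled change of 20 members crossed 0, in the ranges Mki67 -0.32 to 0.01, Top2a -0.33 to 0.02, Ccnd3 -0.01 to 0.23, Ccne2 -0.08 to 0.17, Foxm1 -0.33 to 0.01, Mcm5 -0.04 to 0.31, Cdt1 -0.10 to 0.24, Gmnn -0.08 to 0.20, Rrm2 -0.40 to 0.09, Tyms -0.05 to 0.28, Bub1 -0.27 to 0.10, Bub1b -0.22 to 0.07, Mad2l1 -0.11 to 0.30, Cenpf -0.08 to 0.20, Aurkb -0.43 to 0.07, Kif20a -0.27 to 0.10, Kif23 -0.07 to 0.32, Tpx2 -0.25 to 0.06, Nusap1 -0.16 to 0.27 and Prc1 -0.20 to 0.05. Changes of single genes that turned from above to below 0, none of them called on the TPM scale without the block or in the setting named, were as follows. With median-of-ratios scaling they were -0.34 for Ccnd3, -0.38 for Ccne2, -0.02 for Cdk2, -0.03 for Cdk4, -0.04 for Mcm2, -0.06 for Mcm3, -0.29 for Mcm5, -0.17 for Mcm6, -0.02 for Mcm7, -0.08 for Cdc6, -0.40 for Cdt1, -0.35 for Gmnn, -0.15 for Pcna, -0.30 for Rrm1, -0.28 for Tyms, -0.31 for Mad2l1, -0.37 for Cenpf, -0.31 for Kif23 and -0.37 for Nusap1. With quantile normalization they were -0.17 for Ccnd3, -0.35 for Ccne2, -0.02 for Cdkn2c, -0.08 for Mcm5, -0.06 for Cdc6, -0.25 for Cdt1, -0.35 for Gmnn, -0.19 for Rrm1, -0.21 for Tyms, -0.33 for Mad2l1, -0.31 for Cenpf, -0.24 for Kif23 and -0.31 for Nusap1. By voom they were -0.02 for Ccnd3, -0.09 for Ccne2, -0.06 for Cdt1, -0.07 for Gmnn, -0.01 for Mad2l1, -0.06 for Cenpf and -0.05 for Nusap1. Both scalings remove the general shift of TPM by construction, and for the other changes the cause was not tested. The E18.5 libraries were the shallower ones, so low genes were measured less precisely there.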
